A study of Mus musculus with 4 samples.

Results

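Mesothelin (Msln) and Muc16 were followed as 2 of the 32285 genes counted in sorted lung cells of mouse embryos at E16.5 (E, embryonic day). The pair was taken by symbol and was chosen by its measured levels, since an earlier look at these data had shown Muc16 nearly lost and Msln partly kept in mutants. Their levels in mutants and controls, over all sorted cells and in the cell groups below, are therefore descriptions and carry no test. Mutants carried floxed Myrf alleles (Myrf Fl/Fl), the tamoxifen-dependent recombinase Wt1creERT2, which is active in cells that use the Wt1 gene, and the R26TdTomato reporter. Controls were labelled Cre control and also carried Cre and tdTomato. The mating in the labels has floxed Myrf on both sides, and the Myrf alleles of the controls are not spelled out. Both groups received tamoxifen at E12.5. Each genotype's pool held lungs of 3 to 5 embryos, and living tdTomato-positive cells were sorted and loaded for droplet sequencing of transcript 3' ends. The genotype of a lung was read from its shape and that of its cells, with PCR afterwards. There were 2 mutant and 2 control libraries, and nothing in the labels says if both libraries of a genotype share a pool. The p-values therefore measure at most the spread between these libraries.

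Mesothelium is the epithelial sheet that covers the lung and lines the body cavities. Msln encodes a glycoprotein held at the cell surface by a lipid anchor, and it is a standard marker of mesothelium. Muc16 encodes a very large membrane mucin, known in human as the carrier of the CA125 antigen, and human MUC16 binds mesothelin. Myrf encodes a membrane-bound transcription factor that is released by cleaving itself.

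Msln (ENSMUSG00000063011) lies on the minus strand of chr17:25748613-25754378, and its relative Mslnl lies next to it on the plus strand at chr17:25736042-25748330, with the ends of both genes 282 bases apart. Muc16 (ENSMUSG00000109564) lies on the minus strand of chr9:18495455-18674530 (mm10, GENCODE vM21). Mslnl was close to absent: it had 1 and 6 UMIs (unique molecular identifiers, counted transcripts) in the mutant cells described below and 4 and 2 in the control cells. The 250 bases before the RefSeq start of Muc16 (GRCm38.p6, chr9:18674604-18674853, minus strand) are shown because Muc16 is the member that was nearly absent in the Myrf mutants.
Muc16: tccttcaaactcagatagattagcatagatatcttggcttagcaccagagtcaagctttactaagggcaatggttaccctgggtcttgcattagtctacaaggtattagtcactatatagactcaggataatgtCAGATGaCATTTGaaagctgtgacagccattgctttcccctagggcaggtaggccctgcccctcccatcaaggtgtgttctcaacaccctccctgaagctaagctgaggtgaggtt
The capitals mark an adjoining pair of E-boxes (CANNTG, which reads the same on both strands), which start 116 and 109 bases before the start and do not overlap. An E-box is in 72.3% of the 32851 promoter windows in the table. Other motifs were searched on both strands of the 300-base window that runs on 50 bases past the start, and no match was found. The motif of Myrf in its form CTGGCAC is in 5.01% of all windows, and its form CTGGTAC is in 2.24%. The TEAD motif GGAATG is in 14.7%, the Wt1 motif GTGGGAG in 9.73% and the GATA motif AGATAA in 11.2%. The TATA box, searched as TATAAA, is in 13.6%, and the GC box, searched as GGGCGG, is in 35.7%.

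After filtering, mutant libraries 1 and 2 held 411 and 4275 cells, and control libraries 1 and 2 held 281 and 3503 cells. Cells had a median of 38719 and 15957 UMIs in mutants and 29175 and 14322 UMIs in controls. Pairs of libraries shared 0 to 4 cell barcodes. Control library 2 stood apart. In it 75.7% of all cells had Upk3b at 2 or more UMIs per 10,000 of the cell (0.730 and 0.561% in mutants, 45.9% in control library 1), and 52.3% had the lung epithelial gene Sftpc at that level (5.60 and 1.52% in mutants, 7.12% in control library 1). Values are therefore given for each library.

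Over all sorted cells, Muc16 was nearly absent from mutants while Msln was present in all 4 libraries. Muc16 had 0 and 5 UMIs in the mutant libraries, against 254 and 1229 in the control libraries, or 0 and 0.0619 CPM (UMIs per 1000000) in mutants and 31.1 and 21.2 CPM in controls. Both mutant libraries lay below both control libraries, as they did for 18.5% of the 16246 genes tested. In such sums fewer cells of a type and less RNA per cell cannot be told apart. The fitted log2 difference of Muc16 was -8.85 (edgeR, n = 2 libraries a group), and with 0 UMIs in mutant library 1 its size depends on the prior count. Pooled over libraries, its level in mutants was 0.220% of that in controls (exact interval 0.0712 to 0.513%, counting error only). Upk3b, a uroplakin and a marker of mesothelium, fell, with a log2 difference of -6.61 ± 0.39 (± SE, quasi-likelihood test of edgeR, Benjamini-Hochberg adjusted p = 0.00482). In this fit 0.357% of the genes tested passed, 0.339% as lower and 0.0185% as higher in mutants.

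Msln had 55.2 and 16.4 CPM in mutants, against 77.2 and 64.0 CPM in controls. Both mutant libraries lay below both controls, as they did for 18.5% of the genes tested, and the mutant libraries differed more from each other than the controls did. The fitted log2 difference was -0.985 ± 0.464 (SE, edgeR). It was -1.88 without mutant library 1 and -0.44 without mutant library 2. There were 0 and 0.378 Muc16 UMIs for every 100 Msln UMIs in mutants, against 40.3 and 33.1 in controls.

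Wt1 had a log2 difference of -2.03 ± 0.28 (edgeR adjusted p = 0.0670) and Myrf, the deleted gene, one of -2.22 ± 0.41 (edgeR adjusted p = 0.131), and neither passed. Leaving out a library leaves 1 library in its group, so only the log2 difference is given for such fits. That of Wt1 was -2.34 without mutant library 1 and -1.77 without mutant library 2. That of Myrf was -2.86 without mutant library 1, -1.77 without mutant library 2 and -2.43 without control library 2, all by edgeR. With all 4 libraries, both passed with DESeq2 (adjusted p = 1.97e-06 for Wt1 and 1.31e-05 for Myrf). They also passed in edgeR with no low-count filter (adjusted p = 1.46e-05 and 7.35e-06, in that order) and with a replicate block, given in the closing section. Transcript 3' ends of a gene with a deleted part can still be counted, so the Myrf count is a weak check of the labels.

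**Figure D1:**
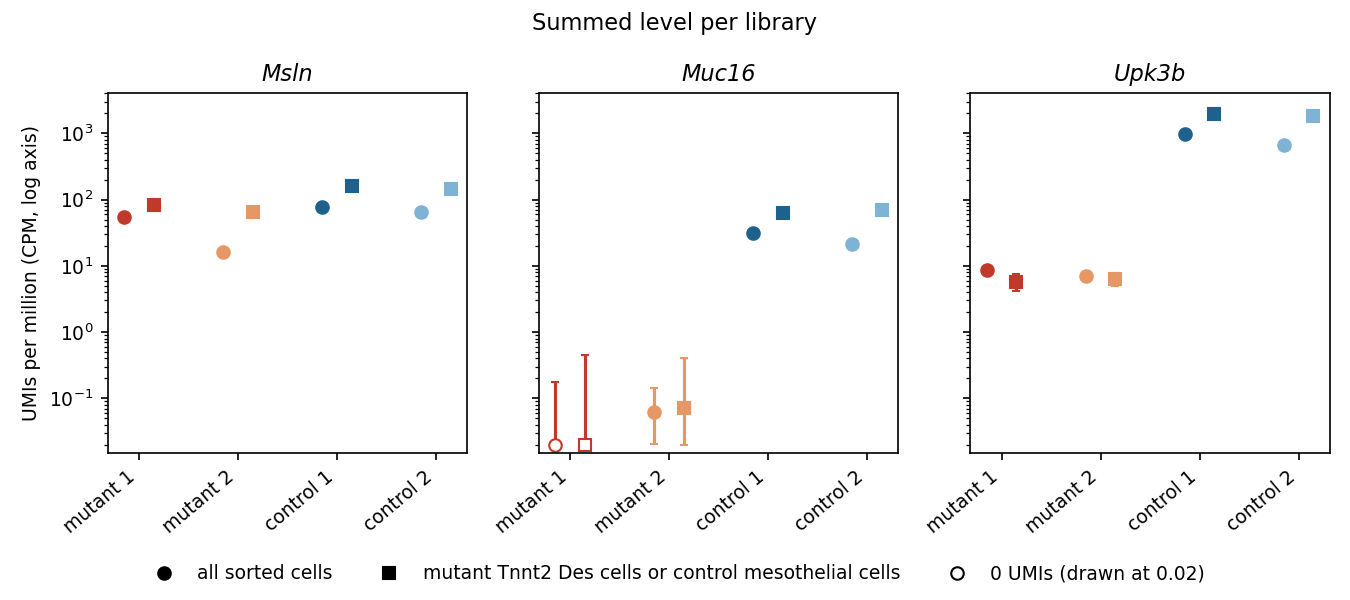
Level of Msln, Muc16 and Upk3b in each library, in CPM on a log axis, with bars for the exact counting interval. Circles are all sorted cells and squares are the mutant Tnnt2 Des cells or the control mesothelial cells. Msln lies between 16.4 and 161 CPM throughout, while Muc16 and Upk3b are far lower in the mutants. Open symbols mark 0 UMIs, drawn at 0.02.

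The cells that carried Msln differed in kind between the genotypes, although all 4 libraries are labelled as mesothelial cells. Control mesothelial cells were taken as cells with Upk3b at 10 or more and Sftpc below 2 UMIs per 10,000, and there were 103 and 568 of them in control libraries 1 and 2, against 1 and 6 in mutant libraries 1 and 2. Cells with Tnnt2, a troponin of striated muscle, and Des, the muscle filament desmin, both at 2 or more numbered 123 and 534 in mutants and 1 and 26 in controls. These mutant Tnnt2 Des cells held 58.8 and 68.7% of all Msln UMIs of their libraries. A further 20.1 and 14.5% lay in mutant cells with Des but without Tnnt2 at that level. In controls the mesothelial cells held 93.5 and 46.8% of the Msln UMIs, and in control library 2 another 40.3% lay in cells with Upk3b at 2 to 10.

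Marker genes showed what the mutant Tnnt2 Des cells were and were not. The smooth muscle actin Acta2 had 2542 and 1897 CPM in them, against 10.4 and 32.9 CPM in control mesothelial cells, and the smooth muscle myosin Myh11 had 627 and 229 CPM, against 18.0 and 12.1 CPM. The cardiac actin Actc1 had 214 and 289 CPM in mutant Tnnt2 Des cells, against 0.817 and 0.670 CPM in control mesothelial cells. The heart gene Nppa had 12.2 and 8.31 CPM in the mutant cells, against 0.272 and 0.251 CPM in the control cells. Myl4 had 3.90 and 35.9 CPM, against 1.36 and 1.42 CPM, and Ttn and Ryr2 were also higher. Levels of Myl7, Tnni1, Tnni3 and Myh7 overlapped between the genotypes. The defining heart myosin Myh6 was at 0 UMIs in both mutant libraries and at 0 and 1 UMI in controls. The listed heart genes thus differed among themselves, and the cells are named here by the genes that chose them. Upk3b had 5.61 and 6.29 CPM in mutant Tnnt2 Des cells, against 1976 and 1804 CPM in control mesothelial cells, which it defined.

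In mutant Tnnt2 Des cells Msln was kept in part and Muc16 was close to absent. It had 680 and 908 UMIs in them, or 82.9 and 65.6 CPM, against 590 and 1737 UMIs, or 161 and 145 CPM, in control mesothelial cells. The pooled level in mutant cells was 48.3% of the control one (exact interval 45.3 to 51.5%, counting error only). Both mutant libraries lay below both controls, but the share of all genes that did so between these different kinds of cell was not counted. Of 6785 genes with at least 20 CPM in control mesothelial cells, 617 stood at 10 to 50% of the control level and 61 below 10%. The percentage rests on the limit for control cells: with Upk3b at 20 or more, control cells had a mean of 257 CPM over libraries, in place of 153 CPM, beside 74.3 CPM in mutant Tnnt2 Des cells. The few control cells that met the Tnnt2 and Des limits had 0 and 58.5 CPM of Msln (1 and 26 cells). Muc16 had 0 and 1 UMI in mutant Tnnt2 Des cells, against 230 and 844 UMIs in control mesothelial cells, or 0 and 0.0723 CPM against 62.7 and 70.7 CPM. Its pooled level was 0.0659% of the control one (exact interval 0.00167 to 0.368%). With 0 UMIs in mutant library 1, levels up to 0.366 CPM (3 counts of the total) would not have been seen.

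Cells of other types gave the background. In fibroblast cells (Tcf21 at 2 or more and Col1a1 at 10 or more per 10,000, without Upk3b, Tnnt2 or Des) Msln had a UMI in 0 of 9 and 0 of 315 mutant cells and in 1 of 23 and 5 of 112 control cells. Their median UMI counts were 28892 and 13528 in mutants and 30936 and 17164 in controls, against 50080 and 19292 in mutant Tnnt2 Des cells and 34538 and 19449 in control mesothelial cells. The 0 of 315 allows a share of up to 0.952% of cells with a UMI. Epithelial cells (Epcam and Nkx2-1 at 2 or more) had 30.3 and 2.27 CPM of Msln in mutants (9 and 40 cells) and 24.6 and 15.2 CPM in controls (3 and 12 cells). There were 1478 and 1044 Msln UMIs for every 100 Upk3b UMIs in mutant Tnnt2 Des cells, against 8.13 and 8.06 in control mesothelial cells. The control cells were chosen by high Upk3b, which lowers their ratio, and the mutant cells had no Upk3b limit. The choice of cells thus sets part of this difference, and how much was not tested. In control library 2, where most cells had Upk3b or Sftpc, fibroblast cells had 12.2 Msln UMIs for every 100 of Upk3b. The part of free RNA in the low Msln levels was not tested. When cells with epithelial, endothelial, immune or Upk3b signal were left out of the mutant Tnnt2 Des cells, an alternative chosen after seeing the data, the mean Msln level was 73.0 CPM, against 74.3 CPM with them.

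Set among other mesothelial genes, Muc16 and Msln stood near opposite ends. The pair was chosen by such levels in these data, so these places are a description and not a finding of the ranking. Of 29 genes listed for mesothelial identity and surface, 27 had at least 20 CPM in control mesothelial cells, a limit on the control level that favours genes that are high there. Their median level in mutant Tnnt2 Des cells was 5.01% of the control level, beside 94.2% over all 6785 genes with that level. Muc16 had the lowest value of the 27, and Msln, at 48.5% as a mean over libraries, was exceeded by Gata6, Krt8 and Krt18. The surface genes Upk3b, Upk1b and Lrrn4 stood at 0.315, 0.810 and 0.559%, the intermediate filament gene Krt19 at 2.48%, and the podoplanin gene Pdpn at 39.4%. The value of Upk3b is lowered by the choice of control cells, which rests on it. Among transcription factors Wt1 stood at 25.6%, Myrf at 17.7% and Gata6, a zinc-finger factor, at 83.5%. In all, 14 of the 27 stood below 10%, 10 between 10 and 50% and 3 above 50%, whereas 61 of the 6785 genes stood below 10%.

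**Figure D2:**
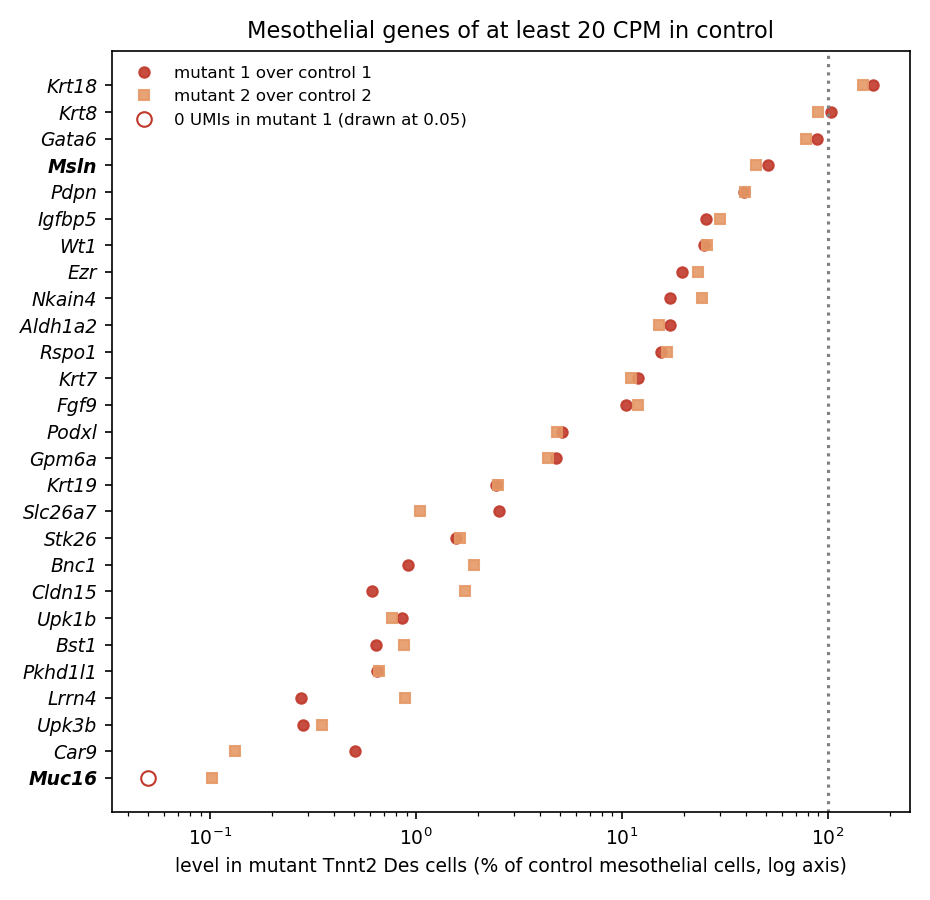
Level of 27 mesothelial genes in mutant Tnnt2 Des cells as a percentage of the level in control mesothelial cells, on a log axis. Each point is a pair of libraries of the same number, and the labels do not say whether the numbers pair the samples. Muc16 is at the bottom of the order and Msln is the fourth from the top, and the pair was chosen by its levels in these data. The control cells were chosen by high Upk3b. The dotted line is the control level.

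Msln was uneven from cell to cell in both genotypes. In mutant Tnnt2 Des cells 45.5 and 26.4% had at least 1 Msln UMI, against 63.1 and 57.2% of control mesothelial cells. Thinned to 5000 UMIs per cell, which left out 5 and 13 mutant and 1 and 33 control cells, these shares were 23.7 and 13.8% in mutants and 36.3 and 35.3% in controls. If every cell had held the mean level, sampling would have given a UMI in 91.0 and 70.8% of mutant and in 96.8 and 88.2% of control cells. The highest 10% of cells held 74.5 and 81.3% of the Msln level in mutants and 52.1 and 48.3% in controls. The coefficient of variation over cells was 3.04 and 2.92 in mutants and 1.71 and 1.56 in controls, and that of Upk3b in control mesothelial cells was 0.443 and 0.444, a gene whose minimum the choice of cells had set.

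A cell was called Msln-on at 2 or more Msln UMIs per 10,000. On cells made up 11.4 and 10.1% of mutant Tnnt2 Des cells (14 and 54 cells) and 24.3 and 25.4% of control mesothelial cells (25 and 144 cells). The highest single cell held 23.2 and 18.3 Msln UMIs per 10,000 in mutants and 18.8 and 15.4 in controls. The on state is a range and not a cell type: 4 and 15 mutant cells lay just above the limit, at 2 to 3 per 10,000, and 6 and 27 just below it, at 1 to 2, while in controls 5 and 64 lay just above and 12 and 68 just below. Muc16-on cells, by the same limit, were 0 of 123 and 0 of 534 in mutants and 11.7 and 12.9% in controls (12 and 73 cells).

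**Figure D3:**
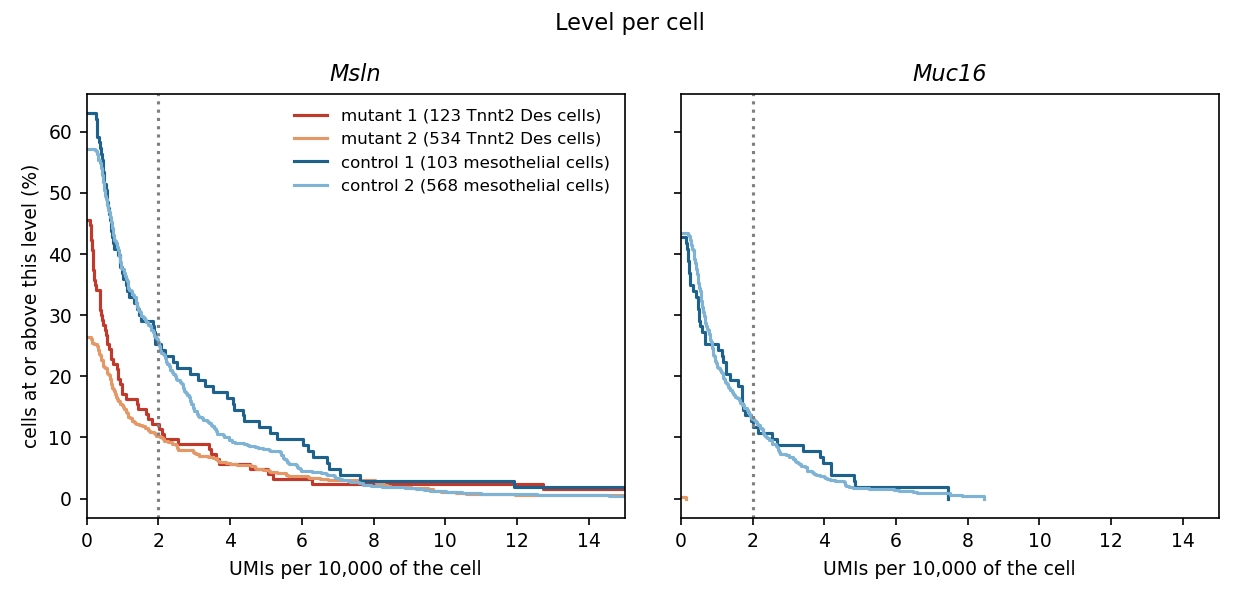
Share of cells (%) at or above each level of Msln or Muc16, in UMIs per 10,000 of the cell, for mutant Tnnt2 Des cells and control mesothelial cells. The dotted line is the limit for on cells. The mutant curves of Msln start lower and run below the control curves at the limit, and the mutant curves of Muc16 lie at or near 0.

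Cells just inside and just outside the limits that chose them are given as a description. Mutant cells in which the lower of Tnnt2 and Des lay at 2 to 3 had 101 and 44.1 CPM of Msln, and those just outside, at 1 to 2, had 67.2 and 31.4 CPM. Control library 2 had 66.1 CPM of Msln and 26.2 CPM of Muc16 in 115 cells with Upk3b at 10 to 12, and 61.9 and 15.8 CPM in 100 cells at 8 to 10. Control library 1 had only 14 and 3 such cells, with 131 and 21.4 CPM of Msln.

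Msln and Muc16 were found in the same control cells more often than their single shares multiply to. Both genes had a UMI in 34 of 103 and 180 of 568 control mesothelial cells, or 33.0% (exact interval 24.1 to 43.0%) and 31.7% (27.9 to 35.7%). The products of the single shares were 27.0 and 24.9%. Cells of 1 library are not replicates and the products come from the same cells, so the intervals give no test of the difference. Depth also varied from cell to cell. Msln had a UMI in 77.3 and 72.9% of cells with Muc16 and in 52.5 and 45.2% of cells without it. Thinned to 5000 UMIs, both were found in 14 of 102 and 67 of 535 cells, beside products of 8.18 and 8.12%. Cells on for both numbered 6 and 39, or 5.83 and 6.87%, beside products of 2.83 and 3.26%. Still, 31 and 145 control cells had Msln alone and 10 and 67 had Muc16 alone. In mutant Tnnt2 Des cells 56 and 140 cells had Msln alone, and both genes met in 0 and 1 cell.

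**Figure D4:**
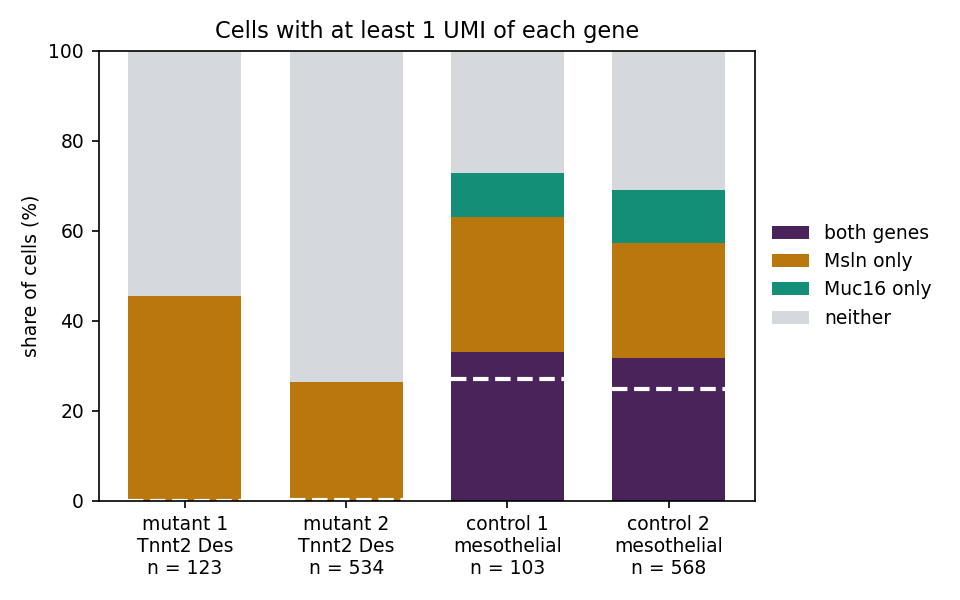
Share of cells (%) with at least 1 UMI of both genes, of Msln or of Muc16 alone, or of neither, in each library. The white dashed line is the product of the single shares, and in both control libraries the share with both genes reaches above it. In mutants almost all Msln-positive cells are without Muc16.

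Over single control mesothelial cells the genes most like Msln, by the mean over libraries of Pearson's r of log2(UMIs per 10,000 + 1), were Lypd2 (0.505 and 0.517 over 103 and 568 cells), S100a6, Igfbp5, Col6a3, Upk3b (0.454 and 0.428), Efemp1, Rarres2 and Ahnak2, among 10146 genes. Muc16 was the fifteenth, at 0.404 and 0.356. The genes most like Muc16 were Lamb3 (0.586 and 0.383), a laminin chain of basement membranes, then Fxyd3, Igfbp6, Msln, Clic3, Upk3b, Eln and Igfbp5. At the other end for Msln stood Dlk1, a growth-related surface protein, at -0.499 and -0.282. Wt1 (-0.114 and -0.063) and Myrf (-0.038 and 0.026) were near 0. The points of 1 library share its droplets and a depth that varies from cell to cell, and no p is given.

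Both members were highest where Upk3b was highest. With the cells split by Upk3b into 3 equal parts, low to high, Msln had 134, 99.2 and 257 CPM in control library 1 and 58.7, 112 and 272 CPM in control library 2. Muc16 had 40.1, 30.9 and 122 CPM in control library 1 and 34.9, 47.7 and 133 CPM in control library 2. Msln-on cells were fewer among cells with the collagen gene Col6a5 at 2 or more per 10,000, at 2 of 22 and 4 of 72 cells, than among those below it, at 28.4 and 28.2%. They were not fewer among cells with Igfbp3 at 2 or more, at 25 and 41.5%, than among those below it, at 24.2 and 23.7%. Muc16-on cells made up 27.3 and 6.94% of cells with Col6a5 at that level and 7.41 and 13.7% of those below it, so the libraries went opposite ways. Cells with a UMI of the division genes Mki67 or Top2a were on at 24.5 and 25.3%, and cells without at 24.0 and 25.4%.

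Msln-on control mesothelial cells differed from Msln-off ones in many genes. In sums per library, with the library as a block, 631 of 11612 genes passed (edgeR, adjusted p under 0.05), which is 5.43%, with 418 higher (3.6%) and 213 lower (1.83%) in on cells; 612 of the 631 had the same direction in both libraries. The count rests on the block and the tool: 31 passed without the block, 78 with DESeq2, all of which were among the 631, and 86 with Upk3b at 20 or more in every cell. On and off cells came from the same 2 libraries, and the fit leaves little spread between the 4 sums to measure. The p-values rest mostly on a dispersion shared over genes, so very small ones are not evidence from replicate animals. On cells also had more Upk3b, at 2469 and 2335 CPM, against 1817 and 1604 CPM in off cells. Muc16 had 127 and 130 CPM in on cells, against 41.8 and 48.4 CPM in off cells. Msln, Muc16 and Upk3b took no part in the calls.

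The 10 largest rises included surface and adhesion genes. Lypd2, of the Ly6 family of anchored surface proteins, had 86.1 and 214 CPM in on cells, against 16.2 and 27.7 CPM in off cells (log2 2.81 ± 0.15, edgeR adjusted p = 3.35e-70). Anxa8, an annexin that binds membrane phospholipids, had 38.0 and 46.7 CPM in on cells, against 5.04 and 7.62 CPM in off cells (log2 2.71 ± 0.27). The other rises were Slco2a1 (2.07), a prostaglandin transporter, the laminin chain gene Lama3 (34.7 and 36.0 CPM in on cells, against 13.3 and 6.93 CPM in off cells), Cfap57 (1.95), Lmo7 (1.82), Clic3 (1.82), the ubiquitin hydrolase Uchl1 (1.69), Cd55 (1.67), which protects cells from complement, and AU021092 (1.61). Lypd2, Clic3 and Uchl1 were called under all 8 alternatives, and Anxa8 under the 7 that gave it an adjusted p, DESeq2 giving none. Each of the other 16 named genes was lost under at least 1 of them, and 14 of the 20 were not called with Upk3b at 20 or more.

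The 10 largest falls included matrix and signalling genes. Rspo3, a secreted enhancer of Wnt signalling, had 16.8 and 29.0 CPM in on cells, against 64.5 and 75.8 CPM in off cells (log2 -1.51 ± 0.18, edgeR adjusted p = 3.68e-15). Col6a5 had 47.0 and 38.8 CPM in on cells, against 139 and 83.1 CPM in off cells (log2 -1.26 ± 0.15). The others were Otof (-1.44), Csrp2 (-1.18), the basement membrane collagen gene Col4a6 (-1.17), the transcription factor gene Cebpd (-1.10), Vars2 (-1.08), Col9a2 (-1.06), the potassium channel gene Kcnb2 (-0.99) and Enpp2 (-0.95), which makes lysophosphatidic acid. With Upk3b at 20 or more, Csrp2 and Enpp2 were at 0.083 and 0.16, no longer lower.

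Of 25 mesothelial genes tested, apart from Msln, Muc16 and Upk3b, 10 rose in on cells, each in both libraries, and 0 fell (edgeR, beside 3.6% of all genes that rose and 1.83% that fell; median log2 0.21, beside -0.005 over all genes). Igfbp5, which binds insulin-like growth factors, had 4967 and 3640 CPM in on cells, against 2122 and 1929 CPM in off cells (log2 1.08 ± 0.07). Nkain4 (0.97), Krt8 (1.08), Pkhd1l1 (1.19), Pdpn (0.76), Bst1 (0.57), Krt19 (0.52), Slc26a7 (0.52), Krt7 (0.48) and Upk1b (0.35) rose too. The regulators did not pass: Wt1 was at -0.26 and Myrf at -0.02, and Myrf had 133 and 102 CPM in on cells, against 141 and 101 CPM in off cells. Of 14 transcription factors tested only Klf4 rose (0.66), beside 3.6% of all genes. Among 7 binding partners that human MUC16 is known to have, Lgals3 (1.60), Lgals9 (1.35), both galectins, and Msn (0.50), which links membrane to actin, rose. Of 5 surface mucins and sialomucins tested, Cd34 (1.59) and Pdpn rose. Of 13 YAP and TEAD genes and targets, Ccn2 (0.89), Axl (0.59) and Crim1 (0.63) rose. Of the 3 genes listed as Col6a5, Igfbp3 and Lrrn4, Igfbp3 rose (0.65) and Col6a5 fell (-1.26). Igfbp3 had 121.9 and 126.4 CPM in on cells, against 127.5 and 56.8 CPM in off cells, so its libraries went opposite ways. The counts of the lists after the mesothelial one are small, and none of those lists is shown to stand apart from the 3.6% of all genes. No list was tested as a set.

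Muscle genes moved in both directions with Msln in control cells. Tnnt2 had 281 and 292 CPM in on cells, against 114 and 105 CPM in off cells (log2 1.41 ± 0.11), and Myl7, an atrial myosin light chain, rose too (0.93), so 2 of 4 heart muscle genes tested rose. Of 5 smooth muscle genes, Tagln (-0.46) and Myocd (-1.75), the coactivator that drives smooth muscle genes, fell. Of 9 lung mesenchyme genes 3 rose and 1 fell, and 1 of the rises, Lum, had opposite directions in the 2 libraries, with 82.8 and 6.11 CPM in on cells, against 8.28 and 13.4 CPM in off cells. Of 3 endothelial genes Tek rose (3.12), with 17.9 and 12.8 CPM in on cells, against 2.52 and 1.27 CPM in off cells. Of 10 cell cycle genes 1 rose, of 4 haemoglobin genes 1 rose, of 2 lung epithelial genes 0 passed, and no immune gene or other mesothelin family gene was high enough to be tested.

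Within mutant Tnnt2 Des cells, Msln-on cells also held more of the other mesothelial genes, given without a test. The listed mesothelial genes other than Msln, Muc16 and Upk3b summed to 3704 and 3699 CPM in mutant on cells, against 1481 and 1490 CPM in mutant off cells, and Igfbp5 made up much of both sums. Of the 25 such genes tested in controls, 21 were higher and 2 lower in on cells of both mutant libraries, beside 27.8% higher and 30.8% lower over all 11612 genes tested in controls. Only 14 of the 25 had a mean of 20 CPM or more in the mutant sums. Of these, 14 were higher and 0 lower, beside 31.2 and 29.5% of 6535 genes at that level. Below it a direction can rest on a few UMIs: Bst1 had 1 and 4 UMIs in mutant on cells and 4 and 9 in off cells. Krt7 had 167 and 174 CPM in mutant on cells, against 16.6 and 22.9 CPM in mutant off cells. Smooth muscle genes summed to 5823 and 3349 CPM in mutant on cells, against 9880 and 6675 CPM in mutant off cells, and Acta2 had 1269 and 553 CPM, against 2734 and 2061 CPM. Of 5 smooth muscle genes 3 were lower and 1 higher in on cells of both mutant libraries. The higher one was Des, with 1495 and 1164 CPM in mutant on cells, against 1469 and 889 CPM in mutant off cells, and Myocd had 79.1 and 16.7 CPM, against 77.2 and 47.2 CPM. Muc16 stayed at 0 UMIs in on cells of both mutant libraries, against 0 and 1 UMI in off cells. Of the 10 genes named as rises in controls, 9 were higher in on cells of both mutant libraries, and of the 10 named as falls 6 were lower in both, beside the same 27.8 and 30.8% of all genes.

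**Figure D5:**
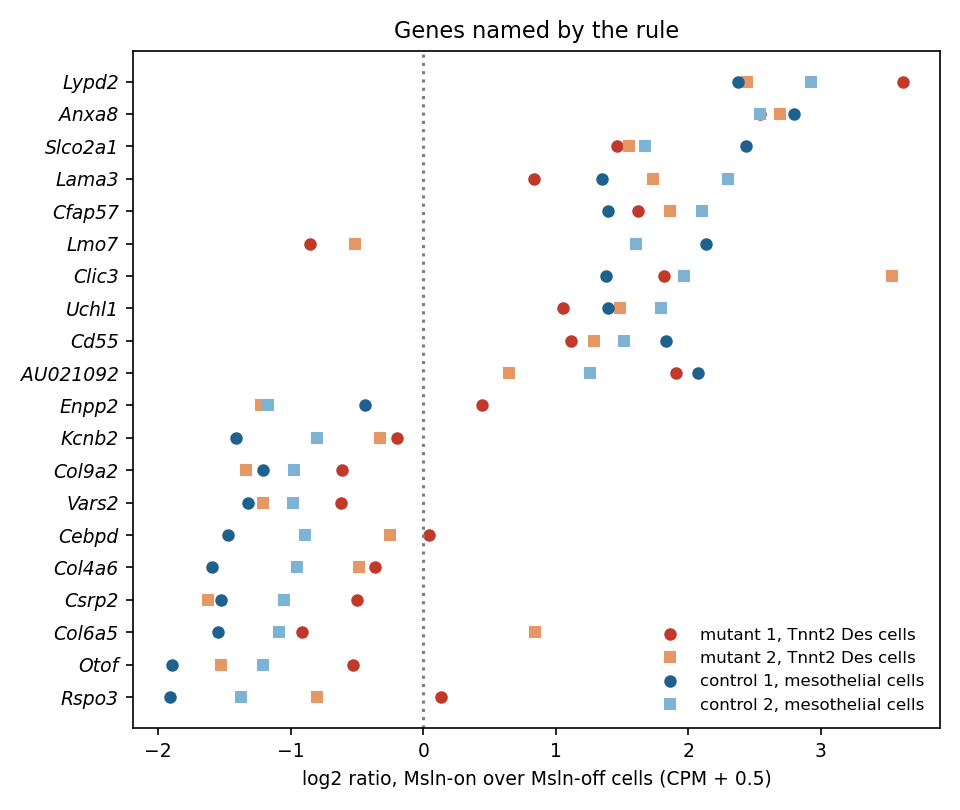
Log2 ratio of Msln-on over Msln-off cells for the 20 named genes, with a point for each library (CPM + 0.5). The mutant points were not used to choose the genes. For 9 of the 10 rises both mutant libraries lie right of 0, and Lmo7 lies left of it in both.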

How the data were processed

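Sorted lung cells were profiled in 4 libraries with the 10x Chromium 3' V3 kit, per the labels. The deposited values are raw UMI counts per gene and barcode, with no normalization, made with Cell Ranger 6.0.2 on mm10, per the submitters' processing notes. Not given in the sources used here: the annotation release, and whether counting used strand. About 50000 cells were sorted and 16000 loaded per genotype, per the labels. Barcodes with at least 1000 genes and at most 15% mitochondrial UMIs were kept. The automatic doublet threshold of Scrublet (scanpy 1.11.5) marked 2, 0, 5 and 2 barcodes in mutant 1, mutant 2, control 1 and control 2 and so did not work, so barcodes were dropped from the highest score down, 0.8% of them for every 1000. The cells kept held 20954282 and 80755665 UMIs in mutants and 8175944 and 58045818 in controls. The chi-square per degree of freedom between libraries of a genotype, 220 for mutants and 105 for controls, showed no repeat.

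Sums per library went into the quasi-likelihood test of edgeR 4.0.16 (R 4.3.3), after filterByExpr and TMM scaling. Tests were two-sided, with Benjamini-Hochberg adjustment over all genes tested and a threshold of 0.05. Each SE was derived from the test, as the size of the log2 difference over the square root of the quasi-likelihood F. All sorted cells were fitted with no covariate, and Msln-on and Msln-off control mesothelial cells with the library as a block, leaving Msln, Muc16 and Upk3b out of the calls. On means 2 or more UMIs per 10,000. Intervals are exact, at 95%, and cover counting error only. The steps were tested on simulated data. Among 16246 genes of the all-cell sums, those made to change 2-fold were found at 22%, 4-fold at 94%, 8-fold at 98% and 16-fold at 100%, with 5 wrong calls. Among 11615 genes of the on and off sums, the 2-fold ones were found at 78% and larger ones at 100%, with 9 wrong calls. Alternatives changed the scaling, the filters, the block, the limits on Upk3b, Sftpc and Msln, the depth per cell and the libraries used, and DESeq2 1.42.0 took the place of edgeR. Gene IDs (32158 of 32285) were matched to GENCODE vM21. The promoter is from RefSeq.

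Msln, Muc16, Upk3b, Myrf and Wt1 are always named. For on against off, the text takes the 10 largest rises and 10 largest falls with a mean of at least 20 CPM and 1 direction in both libraries, and for likeness the 8 highest genes detected in at least 10% of cells. Members of the fixed lists are named with their counts. The members and lists were chosen with earlier results of these data known.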

Additional observations from a re-analysis of the deposited data

Results flagged for a closer look

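Lmo7 had opposite directions in the genotypes. Its log2 ratio of Msln-on over Msln-off cells was -0.858 and -0.513 in the mutant Tnnt2 Des cells and 2.13 and 1.61 in the control mesothelial cells, a difference of -2.56 between the means. It was picked out because every mutant library lay on one side of 0 and every control library on the other, among 45 genes with at least 10 UMIs in each mutant library, and the difference itself was not tested. The mutant on cells held 4 and 6 Lmo7 UMIs.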

How the results depend on the processing

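The direction of Muc16, Msln and Upk3b over all sorted cells was the same under each alternative run (Muc16 log2 -12.51 to -8.42, the lowest with mutant 1 alone, where Muc16 is at 0 and the fitted value depends on the prior count). Msln ranged from -1.88 to -0.44 as each library was left out. The number of genes called over all sorted cells, 58, was 685 without a low-count filter and 497 with DESeq2, and 74 to 1097 as each library was left out: 1097 without mutant 1, 486 without mutant 2, 74 without control 1 and 116 without control 2. With a replicate block it was 525, and Wt1 and Myrf passed (edgeR adjusted p = 0.00927 and 0.00708). The labels give same-numbered libraries a shared number and do not say whether they shared a day or run. Both libraries numbered 1 were small and deep, with 411 mutant and 281 control cells and medians of 38719 and 29175 UMIs. Those numbered 2 had 4275 and 3503 cells and medians of 15957 and 14322 UMIs. The correlation of the deviations of same-numbered libraries was 0.33 over 15611 genes. Its cause was not tested, and the main fit has no replicate term.

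For on against off cells, 631 genes became 31 with no replicate block, 79 in cells thinned to 5000 UMIs, 86 with Upk3b at 20 or more, 413 with Sftpc at 0 UMIs (chosen after seeing the data) and 78 with DESeq2. Csrp2 (0.083) and Enpp2 (0.16) changed sign with Upk3b at 20 or more, and Myrf (0.015) with Sftpc at 0 UMIs. Among single genes, 126 values kept their direction and side of the threshold, and 35 lost the call.

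The mean share of Msln-on control mesothelial cells, 24.8%, was 22.6% over all barcodes, 35.8% thinned, 9.30% at 5 or more per 10,000, 60.2% at 1 UMI, 42.7% with Upk3b at 20 or more and 20.5% at 5 or more. Muc16-on cells, 12.3%, were 11.3, 22.8, 1.28, 43.1, 27.2 and 10.4% in that order. Cells with both genes, 32.3%, were 29.3% over all barcodes, 13.1% thinned, 50.3 and 26.9% with Upk3b at 20 and at 5 or more, 30.7% with no Sftpc limit and 30.8% with Sftpc at 0 UMIs. The share of mutant Tnnt2 Des cells with Msln, 36.0%, was 18.8% thinned. The control level of Msln, 153 CPM, was 257 and 132 CPM with Upk3b at 20 and at 5 or more, and that of Muc16, 66.7 CPM, was 131 and 56.0 CPM. The cause of these changes was not tested. With 2 libraries a group, 2-fold changes over all sorted cells were mostly missed in simulated data.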
